A study of Mus musculus with 2 samples.

Results

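Immediate early genes are transcribed within minutes of a stimulus from factors already present in the cell, without new protein synthesis. Most encode transcription factors with short-lived mRNAs: the FOS and JUN proteins pair into AP-1, ATF3 pairs with members of the same leucine zipper class, EGR1 and the NR4A orphan nuclear receptors bind DNA through zinc fingers, and MYC acts with MAX. In skeletal muscle they are known to respond to contraction, calcium, stretch, growth factors and tissue handling.

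The 10 genes described here are Fos, Fosb, Jun, Junb, Egr1, Atf3, Myc, Ier2, Nr4a1 and Nr4a3. The choice was by name as a known class, with no threshold on their values, but with earlier results of these data known. They were found by matching the gene names or aliases printed in the array files, and were held by 14 probes, which are 41 spots on each array, among 27570 genes in all. RNA was taken from gastrocnemius (GAS) muscle of male 15-week-old C57BL/6 mice on a normal diet, WT or *Gde5* skKO. *Gde5* (Gpcpd1) encodes the enzyme that splits glycerophosphocholine, and in *Gde5* skKO mice a floxed exon is removed by Cre under the human skeletal actin promoter, so cells of the muscle other than fibres are expected to keep the gene. The labels call the control wild-type and do not say whether it carries floxed alleles or Cre. The paper names *Gde5* flox/flox littermates as controls of its contractile, glucose tolerance and fasting tests, and for the arrays it says only WT. Both genotypes competed for the same spots on 2 Agilent two-colour arrays, with *Gde5* skKO RNA in Cy5 on array 1 and in Cy3 on array 2. The labels name 5 mice per genotype, but not whether RNA was pooled, whether both arrays held the same RNA, or whether the mice were fasted or given glucose, so no test across mice was made. The paper describes array comparisons after a glucose injection and, separately, under fasting. It does not say which of these each of the 2 arrays holds, so the arrays may also differ in feeding state.

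Each value below is a log2 ratio of *Gde5* skKO over WT, so that a negative number means less mRNA signal in *Gde5* skKO muscle. The error beside a ratio is that of the scanner software, Feature Extraction, for the spots of 1 array, and its p-value comes from the same error model. A gene was called when this p-value was under 0.05 on both arrays with the same direction. On both arrays 13571 genes rose well above background in 1 channel or more and were tested, and 450 were called, which is 3.32%. Of these, 235 (1.73%) were lower and 215 (1.58%) were higher in *Gde5* skKO muscle. In the direction that follows the dye instead of the genotype, 214 genes passed the same threshold. The targeted gene had 4 probes, and 3 of them were 7.61-fold to 9.05-fold lower in *Gde5* skKO than in WT muscle. The 9.05-fold probe was dim in *Gde5* skKO, and its mean ratio of -3.18 became -1.45 with normexp background correction and loess. The remaining probe, at 132256048 to 132256107 on chromosome 2 of mm8, had ratios of -0.050 and -0.47. Its Feature Extraction p-values were 0.805 and 0.0255. By mean log2 signal over both genotypes it was the brightest and stood for the gene, so the targeted gene was not among the called genes. In WT alone it was dimmer, at 6917 and 7610, than the probe at 132221110 to 132221169, at 13034 and 15748. Where these probes lie relative to the floxed exon was not determined here. Defining fibre mRNAs were bright in both genotypes, with summed signals of the 8 fibre markers from 546889 to 597613 in *Gde5* skKO and from 545915 to 554182 in WT, and 0 of the 8 were called. As bulk tissue was measured, fewer cells of a type and less RNA per cell cannot be told apart.

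None of the immediate early genes was called. Of the 10 genes, 9 were measured well enough to test, and 0 of 9 were called, beside 3.32% of all genes. Fos, Nr4a1 and Egr1 had ratios below 0 on both arrays (that of Egr1 on array 1 turned to 0.013 with normexp and loess), Atf3 had ratios above 0 on both, and Fosb, Jun, Junb, Myc and Ier2 had opposite signs on the arrays. Myc was below 0 on both arrays with normexp and loess, at -0.23 and -0.010, and without background correction both Myc (-0.23 and -0.018) and Ier2 (-0.033 and -0.0028) were. Being below 0 on both arrays without any threshold was seen in 25.3% of all genes, and being above 0 on both in 29.2%. The median of the 9 mean ratios was -0.18, against 0.014 over all genes, with medians of -0.15 on array 1 and -0.052 on array 2. With normexp background correction and loess normalization in limma the median of the 9 was -0.0195. The p-value was under 0.05 on 1 array alone in 4 genes (Fosb, Junb, Myc and Nr4a1), beside 16.2% of all genes. The size of the member ratios bears on these counts. The smallest mean ratio of any called gene was 0.415 in absolute value, and the largest of the 9 tested members was 0.389, so no gene with a mean ratio as small as theirs was called.

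**Figure D1:**
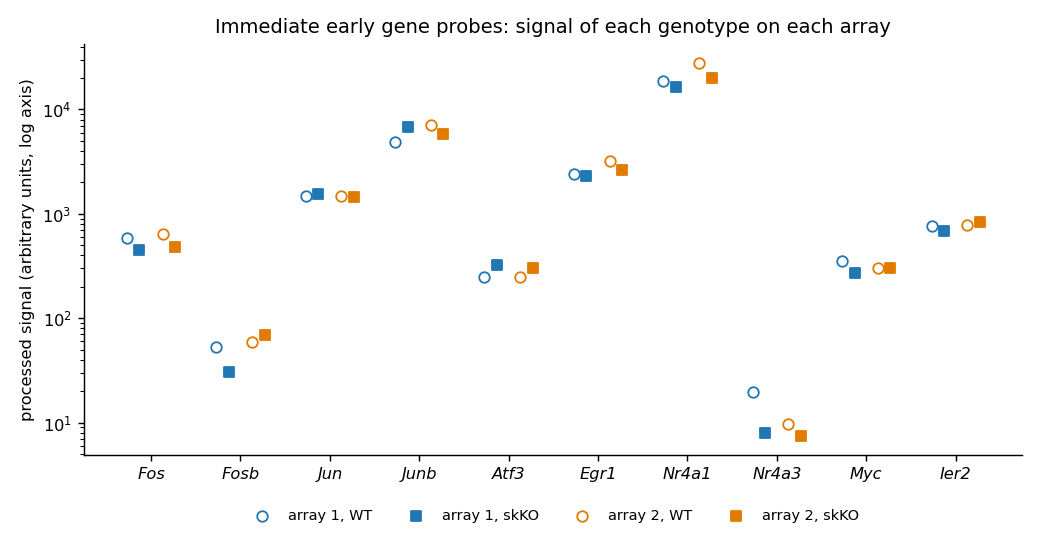
Processed signal (arbitrary units, log axis) of the brightest probe of each of the 10 immediate early genes, WT as open circles and skKO as filled squares, array 1 in blue and array 2 in orange. Fos and Nr4a1 lie lower in skKO than in WT on both arrays and Atf3 higher, while Junb and Myc change order between the arrays. Heights of different probes are not comparable.

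The promoters of the 3 genes that kept 1 sign on both arrays under each background correction, Fos, Nr4a1 and Atf3, are shown because they are where an early stimulus would act on these genes. Each is the 250 bases before the transcription start in RefSeq on GRCm38.p6, printed 5′ to 3′ on the gene's strand. The regions are chr12:85473640-85473889 on the plus strand for Fos, chr15:101266596-101266845 on the plus strand for Nr4a1 and chr1:191183334-191183583 on the minus strand for Atf3. Capitals mark TGACG, the core that CREB and ATF proteins recognize, on either strand, so that CGTCA is the same motif read from the opposite strand.
Fos: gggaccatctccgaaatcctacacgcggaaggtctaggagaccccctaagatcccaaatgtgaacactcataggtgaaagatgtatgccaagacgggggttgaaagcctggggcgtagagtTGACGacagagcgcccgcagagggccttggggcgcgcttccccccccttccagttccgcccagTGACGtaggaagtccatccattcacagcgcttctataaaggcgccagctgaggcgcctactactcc
Nr4a1: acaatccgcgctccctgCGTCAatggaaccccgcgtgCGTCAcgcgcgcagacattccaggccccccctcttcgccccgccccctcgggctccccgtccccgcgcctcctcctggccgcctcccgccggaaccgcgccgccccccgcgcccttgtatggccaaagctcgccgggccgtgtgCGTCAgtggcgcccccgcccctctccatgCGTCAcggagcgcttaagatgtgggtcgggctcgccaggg
Atf3: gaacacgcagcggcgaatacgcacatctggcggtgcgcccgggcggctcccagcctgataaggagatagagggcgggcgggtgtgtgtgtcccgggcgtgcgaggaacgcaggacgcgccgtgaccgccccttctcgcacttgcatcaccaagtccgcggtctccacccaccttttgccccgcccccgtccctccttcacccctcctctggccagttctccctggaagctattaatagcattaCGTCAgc
The Fos window held 2 matches, the Nr4a1 window 4 and the Atf3 window 1. Windows were at hand for 7 of the 10 genes, and TGACG was in 6 of the 7, all but that of Jun, beside 17.8% of 32851 promoter windows of the same length. The full palindrome TGACGTCA, which contains TGACG, was in 0 of the 7 and in 1.55% of all windows. TATAAA was in 1 of the 7, that of Fos, and in 12.4% of all windows. The CArG box, which serum response factor binds, was searched as its strict consensus on both strands. It was in 0 of the 7 and in 1.47% of all windows. Bases farther upstream were not searched, nor were the windows of Egr1, Myc and Ier2, which were not at hand. TGACG was thus in the windows of genes below 0, above 0 and of mixed sign alike, and its presence says only that these letters lie there.

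Among the genes of the AP-1 class, Fos and Jun were printed 10 times on each array. FOS is the inducible partner that JUN proteins need to form the most active AP-1 dimers. Its probe lies at 86366053 to 86366112 on chromosome 12 of mm8 and its values are means over those spots. The mean signal on array 1 was 581 in WT and 452 in *Gde5* skKO muscle, and on array 2 it was 640.4 in WT and 479 in *Gde5* skKO. The *Gde5* skKO signal was thus the lower on both arrays. The ratio was -0.36 on array 1 and -0.42 on array 2, with a mean of -0.39 ± 0.041 (SD, n = 2 arrays), which is 1.31-fold lower in *Gde5* skKO. The Feature Extraction p-value, taken as the median over the 10 spots, was 0.0777 on array 1 and 0.0520 on array 2, both short of the threshold. In limma's moderated test on the normexp and loess ratios, where its mean was -0.27, Fos had an unadjusted p of 0.0279 and an adjusted p of 0.469.

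The spots of Fos varied less than the error model allows. On array 1 the 10 spots ran from -0.47 to -0.26 with a median of -0.37, and on array 2 from -0.56 to -0.31 with a median of -0.41. All 10 spots were thus below 0 on both arrays. The SD over spots was 0.074 on array 1 and 0.067 on array 2. The error given to 1 spot was 0.21, which is 2.84 and 3.14 times the spot SD. This was not particular to Fos. Over all probes printed 10 times that passed the background filter, the median spot SD was 0.092 on array 1 and 0.098 on array 2. Their median error was 0.210 and 0.213. Spots of 1 array share the RNA, the labelling and the hybridization, so they measure printing and scanning error only. Of the 147 probes printed 10 times that passed the background filter, 13 (8.84%) likewise had every spot lower on both arrays, 19 had every spot higher, and 10 had every spot on 1 side in the dye direction. By its mean ratio Fos was the 9th lowest of the 147. If the 10 spots are taken as independent, a choice made after the data were seen, Fos would be called, with p-values of 5.40e-08 and 3.29e-10. By that rule 3.47% of all genes and 23.1% of the 147 probes were called.

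**Figure D2:**
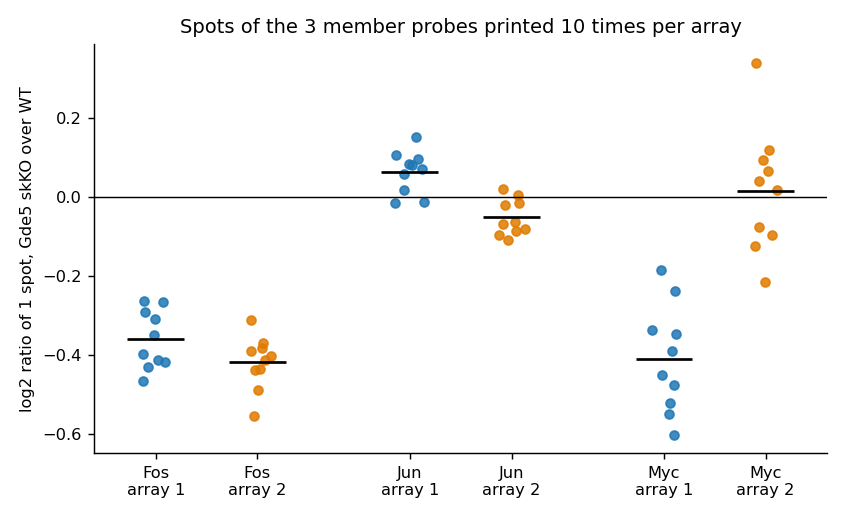
Log2 ratio (skKO over WT) of each spot of the 3 member probes printed 10 times on each array, array 1 in blue and array 2 in orange, with the mean as a black line. All Fos spots lie below 0 on both arrays, the Jun spots lie from -0.11 to 0.15, and Myc is below 0 on array 1 and scattered about 0 on array 2.

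Fosb, a FOS paralogue that also pairs with JUN proteins, was close to the background. Its probe (mm8, chromosome 7, 18461650 to 18461709) gave 52.5 in WT and 30.8 in *Gde5* skKO on array 1, and 59.8 in WT and 69.5 in *Gde5* skKO on array 2. The order of the genotypes turned with the array. The ratios were -0.77 with an error of 0.38 and 0.22 with an error of 0.33, so their SD of 0.70 exceeded the mean of -0.28. Its p-value was 0.0455 on array 1 and 0.509 on array 2.

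Jun encodes the main DNA-binding partner of FOS, and its 10 spots per array showed nearly equal signals in both genotypes. The probe (mm8, chromosome 4, 94541191 to 94541250) gave 1472 in WT and 1537 in *Gde5* skKO on array 1, and 1495 in WT and 1442 in *Gde5* skKO on array 2. The ratios were 0.063 and -0.052, with spot SDs of 0.053 and 0.045, and the mean was 0.0055 ± 0.082 (SD, n = 2 arrays). On array 1, 2 of 10 spots were below 0, and on array 2, 8 of 10 were, so the small shift changed direction between the arrays. Dye and array changed together, and the RNA and the feeding state may have changed too, so their parts cannot be told apart.

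Junb, a JUN family protein that activates more weakly than JUN, had 2 overlapping probes on chromosome 8 of mm8. The brighter, at 87867049 to 87867108, gave 4849 in WT and 6840 in *Gde5* skKO on array 1, but 7042 in WT and 5757 in *Gde5* skKO on array 2. Its ratios were 0.50 and -0.29, with p-values of 0.0176 and 0.158, so the larger of the differences was not repeated on array 2. The dimmer, at 87867087 to 87867146, had ratios of 0.094 and -0.22, which became -0.33 and 0.17 with normexp and loess. The signs of the dimmer probe thus depend on the normalization, and those of the brighter probe did not.

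Atf3, a stress-induced leucine zipper protein that can repress its own targets, was the only member above 0 on both arrays. Its probe (mm8, chromosome 1, 192871283 to 192871342) gave 250 in WT and 324 in *Gde5* skKO on array 1, and 248 in WT and 306 in *Gde5* skKO on array 2. The *Gde5* skKO signal was the higher on both arrays. The ratios were 0.37 with an error of 0.22 and 0.30 with an error of 0.23, with a mean of 0.34 ± 0.049 (SD, n = 2 arrays) or 1.27-fold. The p-values of 0.0842 and 0.189 did not reach the threshold, and limma gave an adjusted p of 0.796. With normexp and loess the mean was 0.18.

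Egr1, a zinc finger factor on chromosome 18 that SRF and its partners induce, gave 2385 in WT and 2283 in *Gde5* skKO on array 1, and 3216 in WT and 2603 in *Gde5* skKO on array 2. The ratios were -0.063 and -0.31 with errors of 0.20 and 0.21, and the former became 0.013 with normexp and loess and 0.011 without background correction, so the sign on array 1 was not settled. Its p-values were 0.758 and 0.139, and limma's adjusted p was 0.931.

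Nr4a1 (Nur77), an orphan nuclear receptor that promotes glucose use genes in muscle, was bright in both genotypes. Its probe lies on chromosome 15 of mm8 at 101102674 to 101102733. It gave 18875 in WT and 16259 in *Gde5* skKO on array 1, and 28048 in WT and 19879 in *Gde5* skKO on array 2. The *Gde5* skKO signal was the lower on both arrays, but the gap was wider on array 2. The ratios were -0.22 and -0.50, each with an error of 0.20 to 0.21, and the mean was -0.36 ± 0.20 (SD, n = 2 arrays) or 1.28-fold lower. The p-value was 0.294 on array 1 and 0.0175 on array 2. Normexp and loess left the mean at -0.33, so the ratio of this bright probe hardly moved with the background correction. Limma gave an unadjusted p of 0.0126 and an adjusted p of 0.335. Nr4a1 and Fos were the 2 members of 9 with an unadjusted limma p under 0.05, beside 8.56% of all genes. After Benjamini-Hochberg adjustment over all genes, limma called 0 members and 0.818% of all genes.

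Nr4a3 (NOR-1), a close relative of Nr4a1, was not well above background in either genotype on either array. Its probe, which spans 48088918 to 48092104 on chromosome 4 of mm8, gave signals of 7.46 to 19.7. Its ratios of -1.29 and 0, with errors of 1.06 and 2.06, are shown but were not tested.

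Myc encodes a growth-promoting transcription factor, and its 3 probes on chromosome 15 of mm8 disagreed between the arrays. The probe printed 10 times (61819627 to 61819687) gave 357 in WT and 270 in *Gde5* skKO on array 1, but 302 in WT and 305 in *Gde5* skKO on array 2. The ratios were -0.41 and 0.016. All 10 spots were below 0 on array 1, from -0.60 to -0.18, and 4 of 10 were below 0 on array 2, from -0.22 to 0.34. The probe at 61819528 to 61819587 gave a like pair of ratios, -0.57 and 0.034, whereas the dim probe at 61819036 to 61819095 gave 1.37 and -1.07. In the brighter probes Myc was thus lower in *Gde5* skKO on array 1 alone. Feature Extraction p-values there were 0.04999 for the probe printed 10 times and 0.00953 for the other. The shared direction of the 10 spots on array 1 was not repeated on array 2, where the dyes and perhaps the RNA or feeding state differed.

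Ier2, a small nuclear protein induced by growth factors, had ratios of -0.15 and 0.11 from its brighter probe (mm8, chromosome 8, 87549656 to 87549690). That probe gave 759 in WT and 682 in *Gde5* skKO on array 1, and 776 in WT and 836 in *Gde5* skKO on array 2. The genotypes changed order between the arrays. The other probe, at 87549829 to 87549887, was not well above background in any channel.

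**Figure D3:**
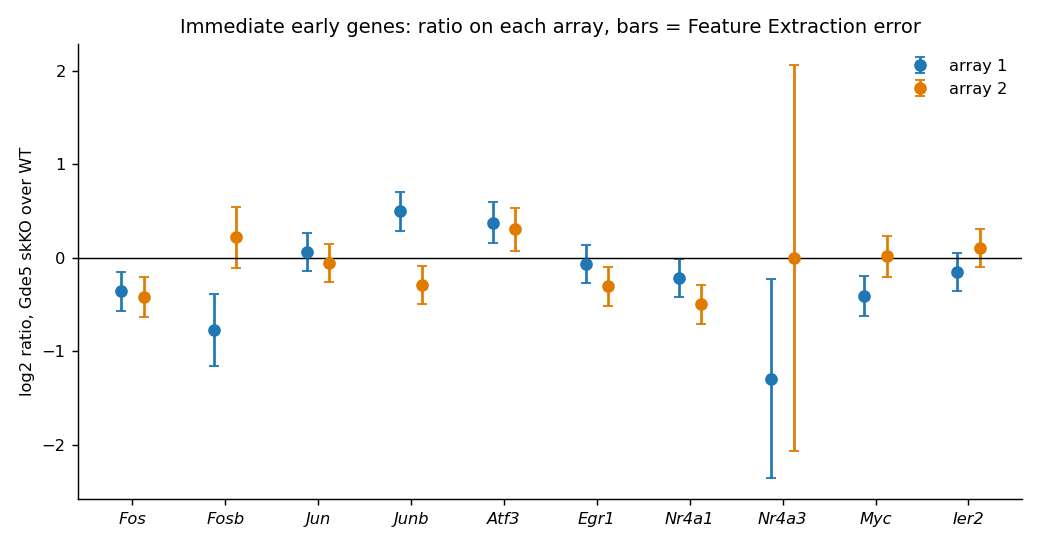
Log2 ratio (skKO over WT) of the brightest probe of each immediate early gene on array 1 (blue) and array 2 (orange), with bars for the Feature Extraction error of 1 spot. Fos, Nr4a1 and Egr1 lie below 0 on both arrays (Egr1 not so on array 1 with normexp and loess) and Atf3 above, and the others change sign or, as Nr4a3, have errors over 1.

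The paralogues of the members were measured in the same way. Fosl2, a slower member of the FOS family, had ratios of -0.18 and -0.66, and Jund, the JUN protein that resting cells hold, had -0.14 and 0.052. With normexp and loess the Fosl2 ratios became 0.017 and -0.27. Jdp2, which competes with FOS for JUN partners, had -0.14 and -0.20. None of these was called, and Fosl1 was not well above background. Over the list of AP-1 and ATF partners, 0 of 14 genes were called and the median was -0.080. Egr2, a paralogue of Egr1, fell just short of the threshold, with ratios of -0.43 and -0.43 and p-values of 0.0511 and 0.0395. Normexp and loess brought the Egr2 mean from -0.43 to -0.23, and limma's adjusted p was 0.548. Egr3 and Mycl did not pass the background filter. Nr4a2 had ratios of 0.084 and 0.38, Ier5 had -0.19 and -0.15, and Mycn had 0.16 and -0.46. Ier3, an early gene that modulates survival signalling, was called lower, with ratios of -0.53 and -0.92, although normexp and loess brought its mean from -0.73 to -0.25 and limma's adjusted p was 0.515. It was the 1 called gene of 7 in the list of EGR, NR4A and IER relatives, beside 1.73% of all genes called lower. In the list of MYC relatives and the MAX network, Max itself was called lower, 1 of 10 genes beside the same 1.73%, with ratios of -0.41 and -0.42 that lie at the lower edge of what was called. MAX is the partner that MYC needs to bind DNA. Limma's adjusted p for Max was 0.357.

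Other early response genes, which include phosphatases, Krüppel-like factors and matrix proteins induced along with the members, held 6 called genes of 38, all lower. This is 15.8% of the list, beside 1.73% of all genes called lower. The list was chosen with earlier results of these data known, so the share describes these genes only and is no test. Of the 38 genes, 19 were below 0 on both arrays, beside 25.3% of all genes, and the median was -0.11 against 0.014. On array 1 Cebpd gave 9935 in WT and 5536 in *Gde5* skKO, and on array 2 it gave 11244 in WT and 6086 in *Gde5* skKO. Cebpd encodes a C/EBP factor that inflammatory signals and glucocorticoids induce. Its mean ratio was -0.86 ± 0.030 (SD, n = 2 arrays), or 1.82-fold lower, with a limma adjusted p of 0.0126. Gadd45g, a stress-induced growth arrest gene, had ratios of -0.98 and -0.60 and a limma adjusted p of 0.0222. Klf2, a factor known from vessel wall and quiescent cells, had ratios of -0.68 and -0.60 with a limma adjusted p of 0.0310, but was not called by the mean over all its probes, -0.33. These were called by both tests. Dusp1, the phosphatase that switches off MAP kinases, had ratios of -0.51 and -0.65, and Ccn2, a matrix protein induced by stretch, had ratios of -0.44 and -0.68. Limma's adjusted p was 0.0598 for Dusp1 and 0.217 for Ccn2, so both calls rest on the scanner's error model. Amd1, an enzyme of polyamine synthesis, had the lowest mean ratio of the list, -1.14, with a limma adjusted p of 0.00373. The mouse genome also holds Amd2, a near-identical copy, and the probe may read both. Of the paralogues of Gadd45g, Gadd45a had ratios of 0.39 and 0.42 and Gadd45b had 0.42 and 0.31, and neither was called. Both are named here after their values were seen.

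**Figure D4:**
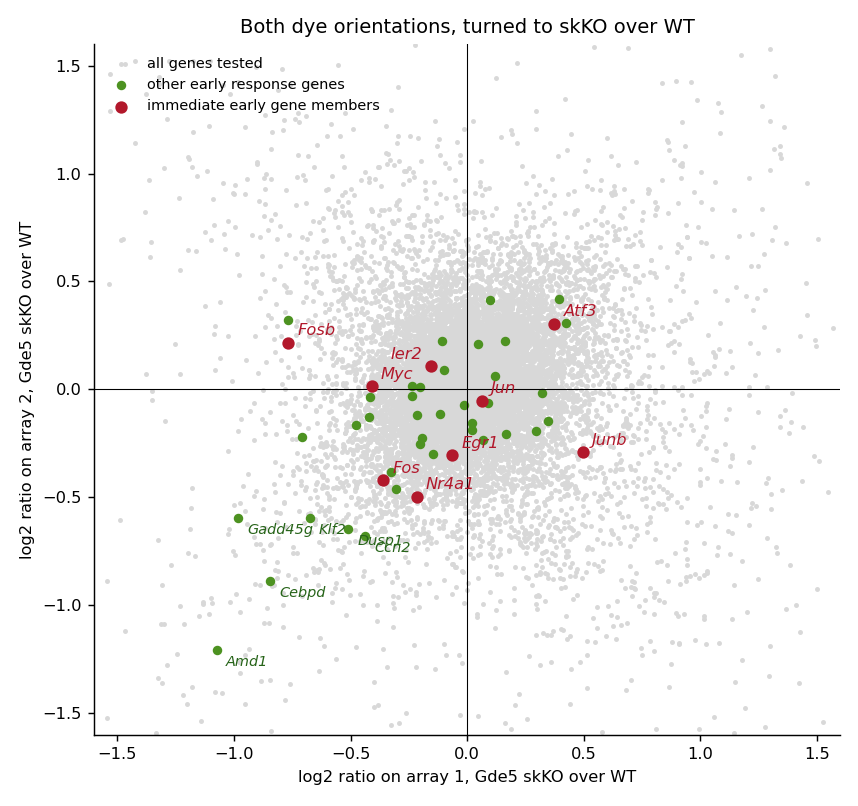
Log2 ratio (skKO over WT) on array 1 against array 2 for all genes tested (grey, 192 of 13571 genes lie outside the axes), the other early response genes (green, called genes named) and the 9 tested members (red). Points with a repeated genotype difference lie at lower left and upper right. Fos and Nr4a1 lie in the lower left inside the cloud, and the 6 called early response genes lie farther out.

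Lists of the pathways that switch on the immediate early genes are given next, beside the 3.32% of all genes called. Among kinases of the ERK pathway and their feedback phosphatases, 0 of 25 genes were called and the median was 0.040. Of the JNK and p38 pathway 0 of 17 genes were called, with a median of 0.042. Of SRF, its ternary complex partners and the myocardin-related factors, which act at the CArG box, 0 of 7 were called, with a median of 0.12. Among CREB regulators and calcium kinases, 1 of 15 was called. This was Camk2a, a calcium-dependent kinase, with ratios of -0.53 and -0.61 and a limma adjusted p of 0.0612. Inducible heat shock genes, which stress raises along with the early genes, held 2 called genes of 6, both higher, beside 1.58% of all genes called higher. Hspa1a, the inducible HSP70, rose from 2195 in WT to 5468 in *Gde5* skKO on array 1 and from 2695 to 5838 on array 2, a mean ratio of 1.22. Hspb1, a small heat shock protein of the fibre, had ratios of 0.75 and 0.79, but over all its probes the mean was 0.37 and was not called. Limma's adjusted p was 0.00448 for Hspa1a and 0.0181 for Hspb1.

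**Figure D5:**
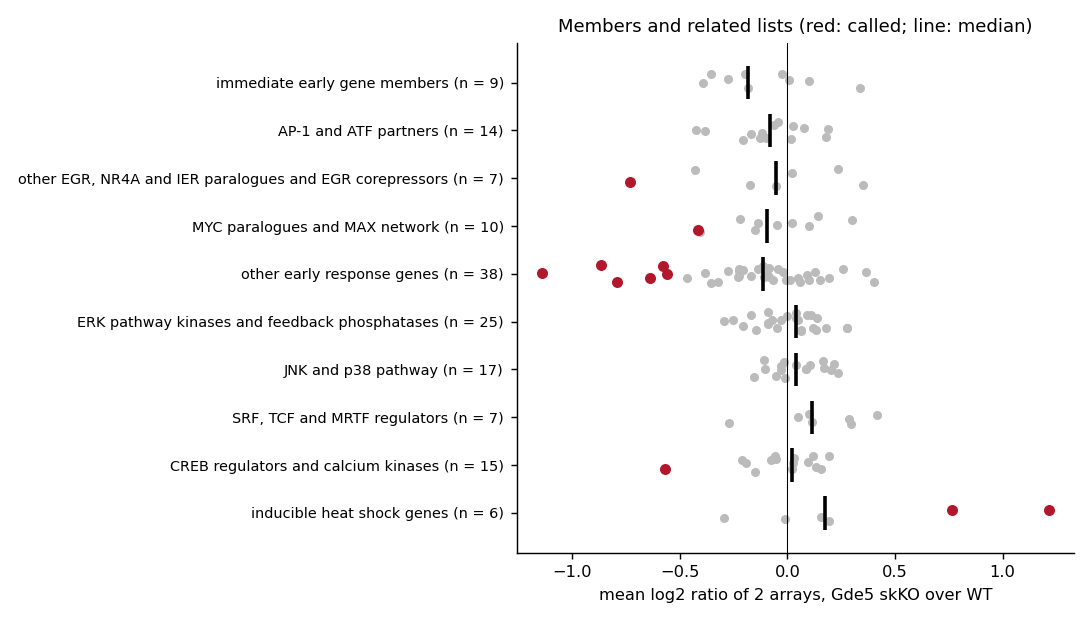
Mean log2 ratio over both arrays (skKO over WT) of each tested gene, 1 row per list, with called genes in red, other genes in grey and the list's median as a black line. No member is called, 6 other early response genes are called lower, and 2 heat shock genes are called higher.

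Markers of other cell types were called in the adipocyte and endothelial lists. Of 4 adipocyte markers tested, 3 were called lower (Adipoq, Plin1 and Retn), beside 1.73% of all genes. The list median of -0.76 became -0.33 with normexp and loess, and Lep was not above background. Adipoq gave 824 and 863 in WT and 420.0 and 423 in *Gde5* skKO. The summed signal of the list is mostly that of Fabp4, also present in vessels, and ran from 37467 to 39554 in *Gde5* skKO and from 36933 to 38495 in WT. Kdr, an endothelial receptor, was called higher with ratios of 0.43 and 0.40, 1 of 5 endothelial markers, beside 1.58% of all genes. Of the 5, 3 (Vwf, Tek and Cdh5) were below 0 on both arrays and 2 were above 0 on both. The median of the endothelial list was -0.095. Acta2, the smooth muscle actin, had ratios of 0.48 and 0.31 and was not called, a gene named after its values were seen. Of the leukocyte, fibroblast, smooth muscle, erythroid and Schwann cell lists, with 4, 5, 4, 2 and 3 genes tested, 0 genes were called. The part of these cells in the lower ratios of the early response genes was not tested.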

How the data were processed

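Two-colour Agilent arrays of WT and *Gde5* skKO GAS muscle were used, both on 1 slide from 1 scan. The authors extracted them with Feature Extraction 9.5.3.1. The deposited files give, per spot, a background-subtracted and dye-normalized log10 ratio of Cy5 over Cy3, its error, a p-value from the error model, and the signal intensity of each channel. A table of the whole series, also deposited, gives those log10 ratios again. Here ratios and errors were put on the log2 scale, turned by the dyes in the labels, and the mean was taken over spots of the same probe. The p-value of a probe is the median over its spots. Control spots, outlier spots (164 on array 1, 200 on array 2) and spots beside debris (11 and 0) were left out of 43379 per array, and 0 member spots were among them. In the channels, 44.6% to 53.2% of spots were well above background. Probes were named from RefSeq, 24331 by accession, 6295 by symbol and 2422 by synonym, and 8064 of 41112 kept the array's name. The brightest probe, by mean log2 signal over both genotypes and both arrays, stood for a gene. A probe whose signal falls in 1 genotype thus loses rank. Coordinates of probes are those of the array annotation (mm8), and whether they lie in coding sequence or UTR was not determined. Feature Extraction p-values and limma's test measure error of spots and arrays, and the number of arrays limits precision.

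The members, the lists and the rule for named genes (all members with each probe, called genes of the lists, paralogues of the members, and *Gde5*) were chosen with earlier results of these data known. Alternatives were normexp (offset 50) and loess in limma 3.58.1 (R 4.3.3), loess without background correction, limma's moderated test with Benjamini-Hochberg adjustment, the series table, each array alone, other thresholds, filters and probe rules. The call rule and the limma fit were tested on simulated data. Figures were drawn with matplotlib 3.10.9, and the other steps ran in Python 3.11.15 with pandas 2.3.3, numpy 2.4.6 and scipy 1.17.1.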

Additional observations from a re-analysis of the deposited data

How the results depend on the processing

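The number of called members was 0 by the stricter p of 0.01, with a 1.5-fold threshold besides, with both channels above background, with no filter, over all probes, with the series table, by limma's adjusted p, and with the signs of either loess ratio. It was 1 to 3 on a single array, 2 by limma's unadjusted p (Fos and Nr4a1) and 1 with spots taken as independent (Fos). The median member ratio was -0.0195 with normexp and loess, which limma's tests also use, -0.068 without background correction, and -0.15 to -0.052 on a single array. On array 2 alone the sign turned, and the single-array ratios ran from -0.77 to 0.22 for Fosb, -0.052 to 0.063 for Jun, -0.29 to 0.50 for Junb, -0.41 to 0.016 for Myc, -0.15 to 0.11 for Ier2 and -0.14 to 0.052 for Jund. Mycn turned to 0.021 with normexp and loess, limma's tests included, and ran from -0.46 to 0.16 on a single array, turning on array 1. The causes were not tested.

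Over all genes, the calls higher and lower were 971 and 910 on array 2 alone, 925 and 722 on array 1 alone, 40 and 71 by limma's adjusted p, 578 and 583 by its unadjusted p, and 107 and 127 at a p of 0.01, and 142 were higher with a 1.5-fold threshold. For the other early response genes, lower calls were 7 to 11 on a single array, higher calls were 1 to 2 on a single array and 2 by limma's unadjusted p, and the median was -0.17 to -0.14 on a single array. Lower calls were 4 by limma's adjusted p, by a p of 0.01 and with a 1.5-fold threshold. Both arrays share 1 slide, so slide could not be taken as a block. No paired analysis was possible because both genotypes share each array and the ratio within an array is already the pair. Fosb and Ier3, both dim, moved toward 0 with normexp, and Nr4a3 was not well above background.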
